A study of Mus with 8 samples.

Results

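The protein kinase LKB1, its binding partners and the subunits of its substrate AMPK were followed through 10 genes: Stk11 (LKB1), Strada, Stradb and Cab39 for the LKB1 complex, and Prkaa1, Prkaa2, Prkab1, Prkab2, Prkag1 and Prkag2 for AMPK. The rows were taken by gene symbol in the platform annotation, by a rule that uses no measured value. That rule and the gene lists below were, however, written with earlier results of these data known. All 10 genes had 1 row among the 23185 rows with a gene symbol (25206 rows in all). The study measured mouse liver RNA on expression arrays 48 h after partial hepatectomy, surgery that takes away some liver lobes and sets off regrowth of the rest. It set 4 arrays labelled Control (label Ctrl) against 4 labelled LKB1 KO (label KO_LKB1), so both groups had undergone the operation and the comparison asks how livers labelled as without LKB1 expression differ from livers with it at that time. The labels used here name no strain, sex, age, allele, promoter or Cre line for either group, nor the cell type in which the gene was removed, and do not say that the arrays came from separate animals, so each p-value reflects spread among these arrays, some of which may be technical.

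LKB1 is a serine/threonine kinase that is active when bound to a pseudokinase of the STRAD family, with the scaffold protein MO25 (the product of Cab39) holding the assembly together. It phosphorylates the activation loop of AMPK, the cell's energy sensor, which consists of a catalytic alpha chain, a scaffolding and glycogen-binding beta chain and an AMP-binding gamma chain. In liver, active AMPK is known for restraining fatty acid and cholesterol synthesis, and LKB1 acts on a wider family of related kinases, among them the SIK kinases that hold gluconeogenic transcription in check.

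Values are log2 expression levels as the authors deposited them. The array medians lay between 3.75 and 3.96, and correlations between arrays between 0.960 and 0.988. LKB1 KO 2 stood apart: its mean correlation with its own group was 0.974, against 0.982 to 0.983 for the other LKB1 KO arrays. Control 4 had the lowest of its group, 0.976, but was close to Control 1 at 0.979. LKB1 KO 2 also had the highest array median, 3.96, and the narrowest spread over all named genes (SD 1.92, against 2.03 to 2.10 elsewhere). The hepatocyte markers, 10 genes such as albumin, gave a summed level (log2 of the summed linear values) between 15.18 and 15.36 in all arrays. The tissue label was thus borne out by its defining genes, although the Control arrays (15.30 to 15.36) and the LKB1 KO arrays (15.18 to 15.25) did not overlap. As a gauge of the level that a gene silent in liver may show, 1354 olfactory and vomeronasal receptor genes were used. The 95th percentile of those rows lay between 3.62 and 3.90 in 7 arrays and at 4.40 in LKB1 KO 2.

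Of the 10 genes, Stk11 fell and the other 9 did not pass the test, which was limma's with Benjamini-Hochberg adjustment over all 23185 genes and a threshold of 0.05. Among all genes, 1.98% passed in either direction and 1.49% as lower in LKB1 KO. The 9 genes that did not pass had differences (LKB1 KO minus Control) between -0.31 for Prkag2 and 0.50 for Prkab1. Their median size was 0.15 log2 units, the same as the median size over all genes at that precision. Of the 9, 6 had a higher mean in LKB1 KO and 3 a lower one, where 52.9% of all genes had a higher mean. The median difference of the 10 was 0.09 log2 units, and that of all genes was 0.02.

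**Figure D1:**
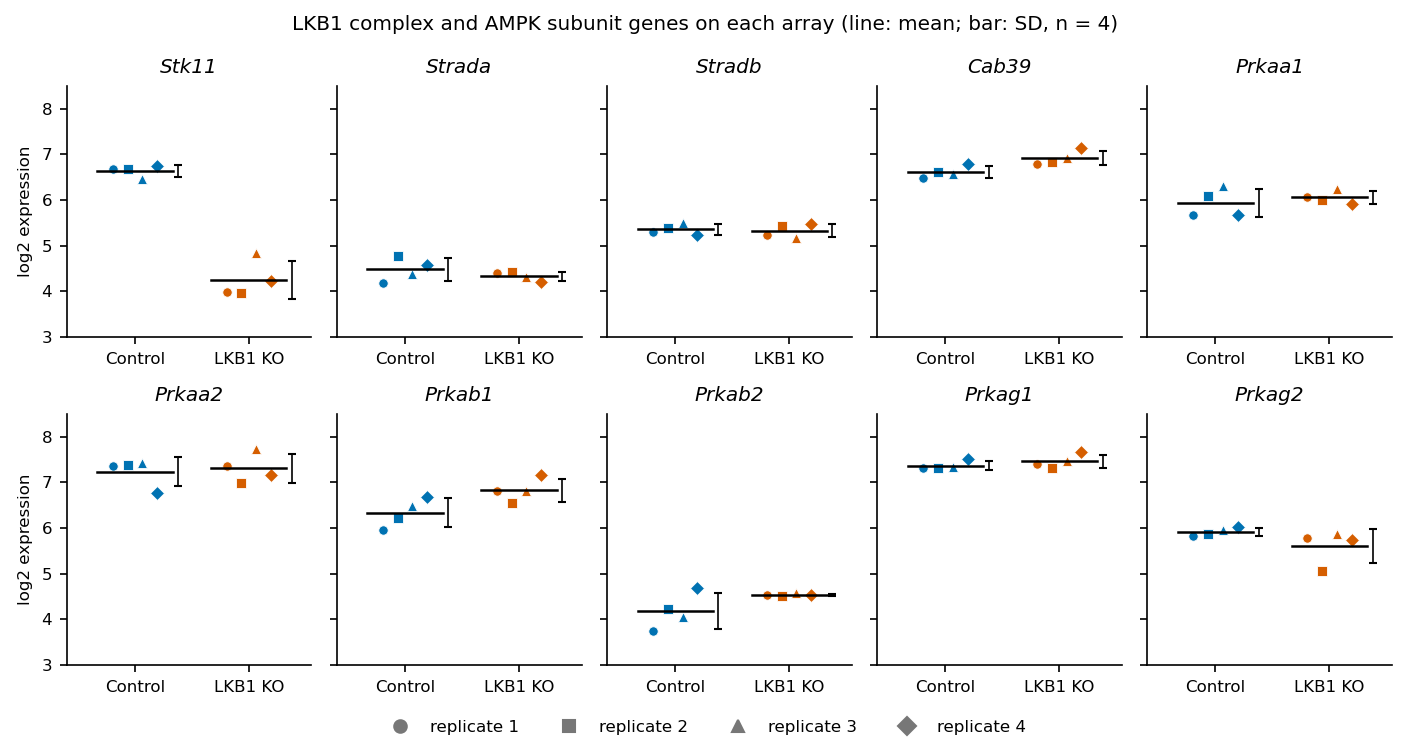
Each panel shows 1 gene, with log2 expression on the vertical axis, the 4 Control arrays in blue and the 4 LKB1 KO arrays in orange; symbols give the replicate number, lines the group means and bars the SD (n = 4). Stk11 is at 6.46 to 6.76 in Control and at 3.97 to 4.84 in LKB1 KO, while the groups of every other gene overlap or, for Cab39, lie next to each other (6.79 against 6.80).

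Stk11 (Entrez Gene 20869), the gene the LKB1 KO label names, was lower in all 4 LKB1 KO arrays than in any Control array. The Control arrays, numbered 1 to 4, gave 6.69, 6.68, 6.46 and 6.76. The LKB1 KO arrays gave 3.98, 3.97, 4.84 and 4.22. No array went against its label, and 1.62 log2 units separated the lowest Control array from the highest LKB1 KO array. Group means were 6.64 ± 0.13 for Control and 4.25 ± 0.41 for LKB1 KO (SD, n = 4). Their difference, -2.39 with an SE of 0.19 and a 95% confidence interval from -2.82 to -1.97 (adjusted p = 0.000453), placed Stk11 the 6th of all genes by p and the 24th by size of difference. It leaves 19.1% of the Control level, with an interval from 14.2% to 25.6%. In LKB1 KO 1 to 4, Stk11 stood at percentiles 95.5, 91.7, 99.0 and 97.6 of the receptor genes. So near the gauge the group percentage is uncertain, and its interval covers only the spread among arrays. The change passed the threshold in each of the 17 other fits tried, with differences between -2.59 and -2.26.

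The LKB1 KO arrays were not equal in what remained of Stk11. Against the Control mean the level was 15.8% in LKB1 KO 1, 15.7% in LKB1 KO 2, 28.7% in LKB1 KO 3 and 18.6% in LKB1 KO 4. LKB1 KO 3 therefore carried the highest residual signal, 1.09 log2 units above the 95th percentile of the receptor genes on its own array. Stk11 exceeded that percentile by 0.53 in LKB1 KO 4 and by 0.12 in LKB1 KO 1, and in LKB1 KO 2 it lay 0.43 log2 units under it (a difference of -0.43). In LKB1 KO 2 the level was 0.01 above the array's median over all named genes. In LKB1 KO 1 and 2 the remaining signal was thus close to or under the gauge, and the percentages for these arrays are uncertain. Which exons the row's probes cover relative to the deleted part is not given in the sources used here. A row outside that part would not test the deletion.

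**Figure D2:**
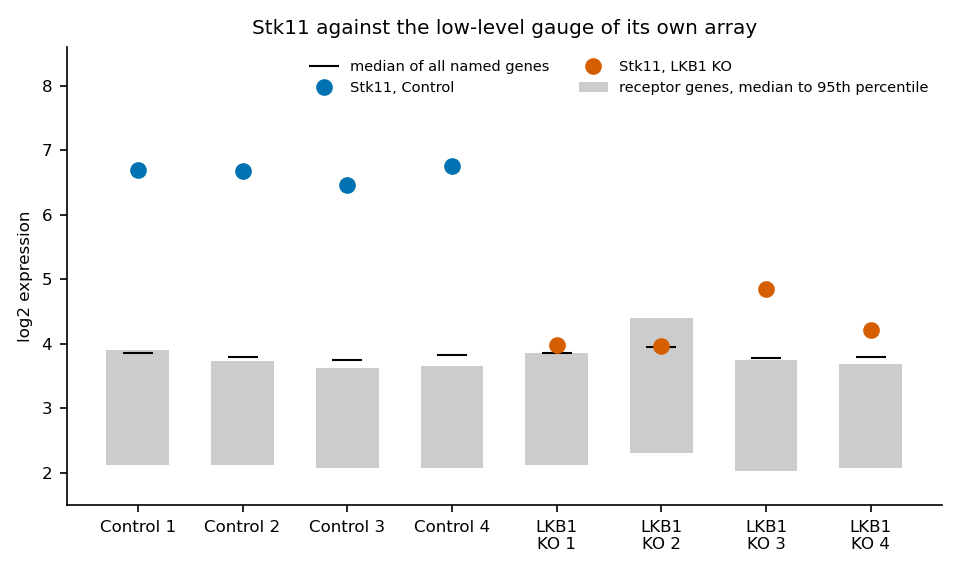
For each array on the horizontal axis, the point shows the log2 level of Stk11 (blue Control, orange LKB1 KO), the grey bar runs from the median to the 95th percentile of 1354 olfactory and vomeronasal receptor genes, and the black dash is the median of all named genes. Stk11 lies at least 2.79 log2 units above the grey bar in every Control array, above it in LKB1 KO 1, 3 and 4, and inside it in LKB1 KO 2.

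A liver sample holds several cell types, and in bulk RNA fewer cells of a type cannot be told apart from less RNA per cell. For scale, 1.49% of all genes passed as lower, and the share whose LKB1 KO average exceeded that of Control was 52.9%. Markers of sinusoidal endothelial cells stood lower in LKB1 KO in 10 of 10 genes, 4 of which passed the test (median difference -0.56). Summed levels were 10.36 to 10.64 in Control against 9.91 to 10.12 in LKB1 KO. The falls were uneven. Clec4g, Fcgr2b, Kdr and Gpr182 passed, with differences of -0.83, -0.77, -0.72 and -0.68. Pecam1, Cdh5 and Lyve1 stood at -0.08, -0.10 and -0.15, with overlapping groups. Stab2, Oit3 and Ehd3 lay between these sets. Kupffer cell or macrophage markers were lower in 10 of 10, with 1 past the test (summed levels of 10.002 to 10.80 against 9.59 to 10.05). Stellate cell markers were lower in 9 of 10, with 0 past the test (9.84 to 10.16 against 9.30 to 9.70). LKB1 KO 3, the array with the most Stk11 of its group, had summed levels of 9.94 for endothelial, 9.59 for macrophage and 9.70 for stellate markers, the last 2 being the lowest and the highest of the LKB1 KO arrays. Of 2 erythroid markers both were lower (median -0.74), with summed levels of 8.83 to 9.28 in Control against 7.84 to 9.19 in LKB1 KO; Alas2 passed the test with all arrays but not without any 1 of them other than Control 4. Lymphocyte markers (1 of 6 lower, 4 of them under the receptor gauge on every array) lay at 6.06 to 6.55 against 5.91 to 6.48 and cholangiocyte markers (3 of 5 lower) at 6.13 to 6.84 against 6.11 to 6.64, with 0 past the test in either list. The count of 4 endothelial calls was 1 or 2 when any array other than Control 4 was left out, and the macrophage call ended without any array but Control 2. None of the endothelial, macrophage and stellate lists had a marker at or below the receptor gauge in every array. The part of these markers in the Stk11 level was not tested.

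None of the 3 partner genes of LKB1 passed the test. Strada (Entrez Gene 72149), the gene of the pseudokinase STRAD-alpha that activates LKB1, was at 4.18, 4.78, 4.39 and 4.59 in Control 1 to 4. It was at 4.40, 4.43, 4.31 and 4.201 in LKB1 KO 1 to 4. All LKB1 KO arrays lay inside the Control range, and the Control arrays spread more widely (SD 0.26) than the LKB1 KO arrays (SD 0.10). The difference was -0.15 (SE 0.15, interval -0.48 to 0.17, adjusted p = 0.725), and it moved from -0.054 without Control 2 to -0.25 without Control 1. Strada was a weak signal, only 0.03 above the receptor gauge in LKB1 KO 2 and at most 1.05 above it elsewhere.

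Stradb (Entrez Gene 227154) encodes the related pseudokinase STRAD-beta. Its Control levels were 5.30, 5.39, 5.51 and 5.25, and its LKB1 KO levels were 5.24, 5.43, 5.18 and 5.47. The groups were interleaved, with 2 LKB1 KO arrays above and 2 below the Control mean. The difference of -0.03 (SE 0.13, interval -0.31 to 0.25, adjusted p = 0.950) was the smallest in size of the 10 genes.

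Cab39 (Entrez Gene 12283), which encodes the scaffold MO25-alpha, had levels of 6.49, 6.62, 6.57 and 6.79 in Control, and of 6.80, 6.83, 6.93 and 7.13 in LKB1 KO. The groups did not overlap, but Control 4 and LKB1 KO 1 were 0.01 log2 units apart. Arrays that did not overlap were found for 8.84% of all genes and for 2 of the 10 described here, Stk11 and Cab39. The difference of Cab39 was 0.31 (SE 0.13, interval 0.02 to 0.59), a 1.24-fold higher mean, and it did not pass after adjustment (adjusted p = 0.330). Its unadjusted p was below 0.05, as for 3 of the 10 genes and 13.4% of all genes. The paralogue Cab39l, outside the 10 genes, stood at -0.26 (SE 0.14, adjusted p = 0.474), in the opposite direction and likewise not past the test.

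Neither catalytic subunit gene of AMPK passed the test. Prkaa1 (Entrez Gene 105787), the alpha-1 chain, was at 5.68, 6.08, 6.32 and 5.68 in Control and at 6.08, 6.001, 6.23 and 5.92 in LKB1 KO. All LKB1 KO arrays lay within the Control range. The difference was 0.12 (SE 0.17, interval -0.25 to 0.49, adjusted p = 0.819), and it moved from 0.032 without Control 4 to 0.24 without Control 3.

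Prkaa2 (Entrez Gene 108079), the alpha-2 chain, was at 7.35, 7.38, 7.43 and 6.76 in Control and at 7.36, 6.97, 7.73 and 7.17 in LKB1 KO. Control 4 was the low array of its group and LKB1 KO 3 the highest of all 8. The difference of 0.08 (SE 0.20, interval -0.36 to 0.52, adjusted p = 0.912) turned to -0.081 without Control 4 and to -0.063 without LKB1 KO 3, so its direction was not fixed. For both catalytic genes the interval kept clear of a 2-fold difference either way.

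The beta subunits had the 2 highest differences among the 10 genes, but neither passed the test. Prkab1 (Entrez Gene 19079), the beta-1 chain, was at 5.95, 6.21, 6.49 and 6.69 in Control and at 6.81, 6.54, 6.81 and 7.16 in LKB1 KO. LKB1 KO 1, 3 and 4 exceeded every Control array, while LKB1 KO 2 lay below Control 4. The difference of 0.50 (SE 0.19, interval 0.08 to 0.91) corresponds to a 1.41-fold higher mean, with an adjusted p of 0.260. Single arrays left out moved it between 0.37 and 0.62 and the adjusted p between 0.157 and 0.466. Without both LKB1 KO 2 and Control 4 it was 0.71 (adjusted p = 0.0967). These were the lowest LKB1 KO array and the highest Control array for Prkab1, so leaving them out had to raise the difference.

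Prkab2 (Entrez Gene 108097), the beta-2 chain, was at 3.75, 4.23, 4.05 and 4.68 in Control and at 4.52, 4.51, 4.57 and 4.52 in LKB1 KO. The LKB1 KO arrays were within 0.07 log2 units of one another, and all stood above 3 Control arrays and below Control 4. Control 1 was under the receptor gauge, by 0.15 log2 units (a difference of -0.15), so the size of any difference is uncertain at this level. The difference was 0.36 (SE 0.18, interval -0.04 to 0.76, adjusted p = 0.447), and it was 0.53 without Control 4 (adjusted p = 0.120) and 0.21 without Control 1 (adjusted p = 0.672).

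The gamma subunits, which bind AMP, ADP and ATP, had means on either side of Control. Prkag1 (Entrez Gene 19082), the gamma-1 chain, was at 7.30, 7.31, 7.33 and 7.51 in Control and at 7.41, 7.31, 7.47 and 7.65 in LKB1 KO. The replicates were close (pooled SD 0.12, the lowest of the 10 genes, against a median of 0.23 over all genes). The difference of 0.10 (SE 0.12, interval -0.18 to 0.37, adjusted p = 0.798) was smaller than that spread, and without LKB1 KO 4 it was 0.033.

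Prkag2 (Entrez Gene 108099), the gamma-2 chain, was at 5.83, 5.87, 5.95 and 6.02 in Control and at 5.77, 5.06, 5.86 and 5.74 in LKB1 KO. LKB1 KO 1, 2 and 4 lay below every Control array, and LKB1 KO 3 overlapped Control 1 by 0.03. The difference of -0.31 (SE 0.18, interval -0.70 to 0.08, adjusted p = 0.504) rested largely on LKB1 KO 2, without which it was -0.13 (adjusted p = 0.711). The muscle-enriched paralogue Prkag3, outside the 10 genes, was below the receptor gauge on all 8 arrays (mean 3.38 in Control and 3.42 in LKB1 KO), and no fold is given for it.

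**Figure D3:**
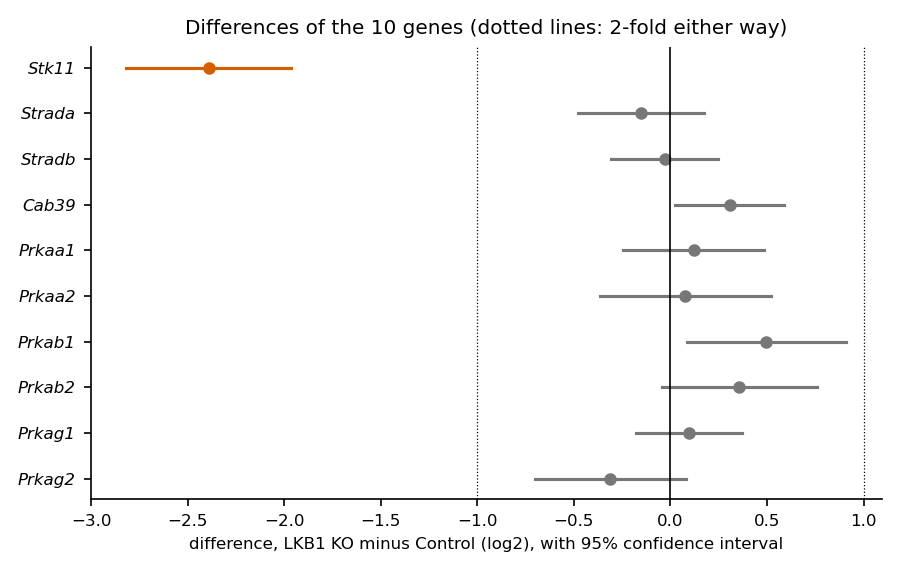
Points are the differences, LKB1 KO minus Control in log2 units, of the 10 genes on the vertical axis; lines are 95% confidence intervals from limma, orange for an adjusted p under 0.05 and grey otherwise, and dotted lines mark a 2-fold difference either way. The interval of Stk11 lies beyond -1, and the intervals of the other 9 genes all lie between -0.70 and 0.91.

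For the 9 genes other than Stk11, every interval from all 8 arrays lay inside a 2-fold difference in either direction. That of Prkab1 reached past it, to 1.01, 1.03 or 1.02 log2 units, without Control 3, Control 4 or LKB1 KO 2, and to 1.12 without both LKB1 KO 2 and Control 4. The intervals are not adjusted for the number of genes, and they leave room for smaller changes: up to 1.88-fold higher for Prkab1 and up to 1.63-fold lower for Prkag2. The standard errors lay between 0.12 and 0.20.

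Within each array the level of a paralogue was also set against that of its partner, and the change of that log ratio between groups was tested by an exact two-sided permutation test over the arrays. This asks whether paralogues changed unequally, and 4 pairs were compared. The log ratio of Prkag1 to Prkag2 was 1.47, 1.43, 1.38 and 1.49 in the Control arrays, and it was 1.63, 2.25, 1.604 and 1.92 in the LKB1 KO arrays. All LKB1 KO arrays stood above all Control arrays, and the Control arrays were tight (SD 0.05, against 0.30 in LKB1 KO). The ratio was higher in LKB1 KO by 0.41 log2 units, a 1.33-fold shift, with an exact permutation p of 0.0286, the smallest that 4 against 4 arrays allow. After Benjamini-Hochberg adjustment over the 4 pairs it was 0.114 and did not pass. Without LKB1 KO 2 the shift was 0.28.

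The ratios of the other pairs overlapped between groups. That of Prkaa1 to Prkaa2 shifted by 0.04 (exact permutation p = 0.800), with a direction that turned when Control 1 or LKB1 KO 2 was left out (-0.082 and -0.049). That of Prkab1 to Prkab2 shifted by 0.14 (exact permutation p = 0.400) and that of Strada to Stradb by -0.12 (exact permutation p = 0.514). With 4 pairs, a single pair cannot go below an adjusted p of 0.114 in this design, so these tests do not show that the paralogues changed equally. Strada and Prkab2 also lay near the receptor gauge on some arrays, as given above.

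**Figure D4:**
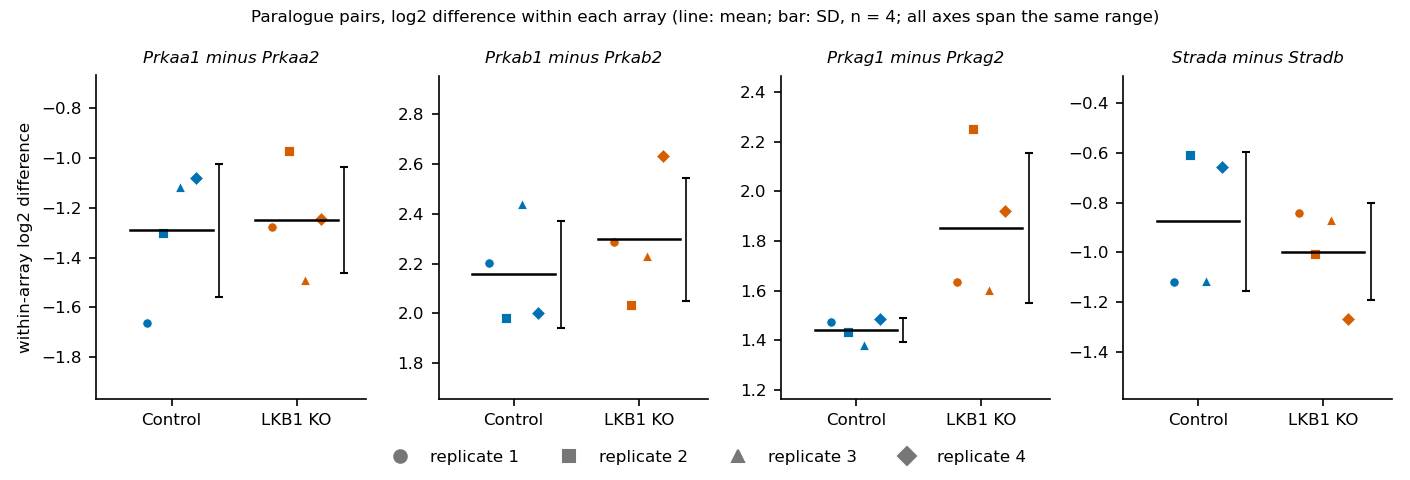
Each panel shows the difference of 2 paralogues' log2 values within an array (vertical axis, same span in each panel) for Control (blue) and LKB1 KO (orange); lines are means, bars the SD (n = 4), and symbols the replicate number. The groups separate for Prkag1 minus Prkag2 (1.38 to 1.49 against 1.604 to 2.25) and overlap in the other 3 panels.

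Some arrays were the extreme ones of their group for several of the 10 genes. Control 4 was the highest or lowest Control array in 9 of the 10 genes: it was highest for Stk11, Cab39, Prkab1, Prkab2, Prkag1 and Prkag2 and lowest for Stradb, Prkaa1 and Prkaa2. Over all genes it was an extreme array of its group in 53.2%. LKB1 KO 2 was the lowest LKB1 KO array for Stk11, Prkaa2, Prkab1, Prkab2, Prkag1 and Prkag2 and the highest for Strada, 7 genes in all, where it was extreme in 64.7% of all genes. Control 1 was the lowest Control array for 6 genes, among them Cab39 and both beta subunits, and it was extreme in 52.4% of all genes.

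Among all genes outside placeholders, the 5 whose levels over the 8 arrays were most like those of Stk11 were Hscb, Pid1, Mfsd1, Cfi and Nr1h4, with Pearson r between 0.983 and 0.986 over 20204 genes ranked. Since Stk11 separates the groups, this likeness mostly restates the group difference, and it is given as a description. All 5 fell in LKB1 KO: Nr1h4, the bile acid receptor gene, by 1.26, Mfsd1 by 1.03, Pid1 by 0.94, Hscb, an iron-sulfur cluster co-chaperone gene, by 0.71, and Cfi, the complement factor I gene, by 0.70 log2 units (adjusted p from 0.00347 to 0.0152). Without LKB1 KO 1 the call of Hscb ended (adjusted p = 0.0545). Its LKB1 KO mean of 3.85 lay within the receptor gauge of those arrays (3.69 to 4.40), so the size of its fall is uncertain. The most opposite patterns were those of Plaat3 (r = -0.975), the nuclear receptor gene Nr4a1 (r = -0.971) and Slirp (r = -0.965). Plaat3 and Nr4a1 rose by 1.08 and 3.64, and Slirp stood at 0.52 (adjusted p = 0.0550). Of the other 9 genes of the complex and of AMPK, Cab39 (r = -0.728) and Prkab1 (r = -0.672) were the most opposite to Stk11 and Prkag2 (r = 0.639) the most alike. When values were centred within each group, so that the difference between groups was removed, the genes most like Stk11 were Krtap31-1, Atp6ap2 and Anxa3 (r between 0.969 and 0.975). With 8 arrays and 20204 genes ranked, some r values this high may arise by chance, which was not tested. Atp6ap2 and Anxa3 did not pass the test, and Krtap31-1 averaged 2.23 in Control and 2.17 in LKB1 KO, well within the receptor range.

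The related kinases that LKB1 activates besides AMPK were described by a list of 12 (SIK, MARK, NUAK and BRSK families and Snrk). The list, like those below, was written with earlier results of these data known. Over all genes, 0.487% passed as higher and 1.49% as lower in LKB1 KO. Of the 12 kinases, 1 rose, 0 fell and 11 did not pass, with a median difference of 0.01. Among those that did not pass, Mark1, Brsk1 and Brsk2 lay under the receptor gauge on every array. Nuak1 was above it in 1 Control array and 3 LKB1 KO arrays. For such genes the list does not show whether expression changed. The one that rose was Sik1, a kinase that keeps CREB coactivators out of the nucleus and is itself induced by cAMP. Its levels were 6.54, 6.27, 6.93 and 7.23 in Control and 9.51, 8.70, 9.04 and 9.17 in LKB1 KO, a 5.14-fold higher mean (difference 2.36, SE 0.23, adjusted p = 0.00130). Nuak2 came next by p, at -0.46 (SE 0.18, adjusted p = 0.288), with all 4 LKB1 KO arrays under the receptor gauge.

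Regulators of LKB1 and AMPK were 18 measured genes (upstream kinases, phosphatases, sestrins, folliculin and its partners, and others). Over all genes, 1.49% passed as lower and 0.487% as higher in LKB1 KO. Of the 18 regulators, 1 fell, 0 rose and 17 did not pass, with a median of -0.17. Ppm1e lay under the receptor gauge on every array. Sesn1, the gene of a stress-induced sestrin that binds AMPK and restrains mTORC1, was at 4.85, 4.90, 4.43 and 4.76 in Control and at 3.95, 4.16, 4.09 and 3.95 in LKB1 KO. Its fall of 0.70 log2 units (a difference of -0.70, SE 0.14, adjusted p = 0.0292) held without Control 3 and without LKB1 KO 2 but not without any of the remaining 6 arrays (adjusted p up to 0.0985), and in LKB1 KO 2 the level was under the receptor gauge. Fnip2, a folliculin partner that binds AMPK, stood at -0.67 (SE 0.17, adjusted p = 0.0850). Its level was under the receptor gauge in LKB1 KO 2 (a difference of -0.77) and only 0.10 above it in LKB1 KO 1.

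Among 25 measured genes whose proteins are AMPK substrates, 1 rose, 1 fell and 23 did not pass, with a median of -0.13. Over all genes, 0.487% passed as higher and 1.49% as lower in LKB1 KO. Tbc1d4 lay under the receptor gauge on every array. Ppargc1a, the coactivator PGC-1alpha that drives mitochondrial and gluconeogenic genes, was at 7.13, 6.47, 6.92 and 7.22 in Control and at 8.43, 8.10, 8.36 and 8.20 in LKB1 KO (difference 1.34, SE 0.17, adjusted p = 0.00401). Pfkfb3, which makes the glycolytic activator fructose-2,6-bisphosphate, was at 5.76, 5.99, 6.08 and 6.01 in Control and at 4.67, 5.07, 5.10 and 5.13 in LKB1 KO (difference -0.97, SE 0.14, adjusted p = 0.00731). In neither gene did the groups overlap. The array measures transcripts, so these values say nothing of how far any substrate was phosphorylated.

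**Figure D5:**
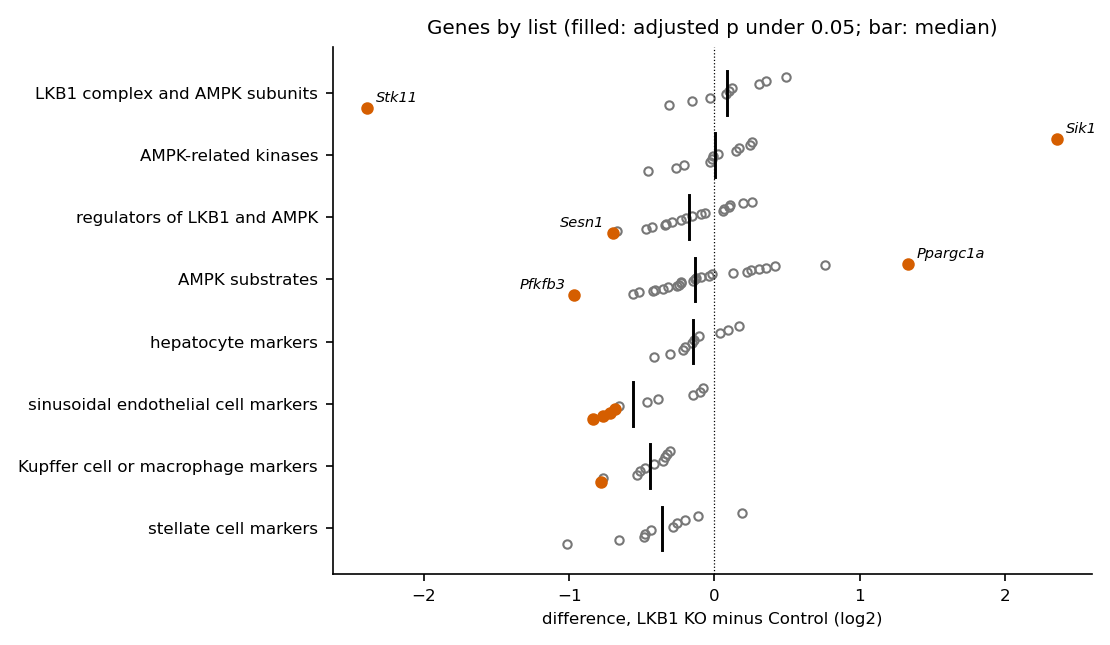
Each point is a gene, placed by its difference LKB1 KO minus Control (log2, horizontal axis) in the row of its list; filled orange points have an adjusted p under 0.05 and black bars are list medians. Stk11, Sik1, Sesn1, Pfkfb3 and Ppargc1a are the filled points in the upper 4 lists, and the medians of endothelial, macrophage and stellate markers lie at -0.56, -0.45 and -0.36.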

How the data were processed

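The authors deposited 1 log2 expression value per row and array; the submitters' processing notes name RMA and Partek without versions. RMA compresses differences of dim rows. Probe positions and the genome build were not given in the sources at hand; coordinates and sequences were not used. Rows were named through the platform annotation (23185 with 1 symbol, 2021 with none), and all 10 symbols matched RefSeq by Entrez identifier.

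All 8 arrays were fitted with limma 3.58.1 in R 4.3.3 (lmFit, eBayes, group as the single term, no filter). Benjamini-Hochberg adjustment was over 23185 genes. Simulated arrays had normal noise, independent between genes, and 200 changed genes in each of 20 runs. On them the fit recovered 8.81% of changes of 0.5 log2 units, 64.4% of 1 and 95.4% of 2. Of the simulated calls, 4.36% were false. Genes that did not pass may therefore have changed by the smaller of these sizes. Deviations shared over many genes, as on LKB1 KO 2, were not simulated, so these rates may not hold for these arrays. Intervals are 95%. For arrays, their number limits the precision. Named genes were the 10, and in each further list those past the threshold or the 2 of smallest p. For likeness to Stk11 they were the 5 highest and 3 lowest by Pearson r, and the 3 highest within groups. The rule that takes the 10 genes uses symbols only, but it and the lists were written with earlier results of these data known. Alternatives were a replicate block, quantile normalization, median centring, removal of the dimmest rows, other variance priors, array weights, all rows, other thresholds and arrays left out.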

Additional observations from a re-analysis of the deposited data

Results flagged for a closer look

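Among 28 sets of 4 arrays (10 genes and 4 paralogue ratios, in each group), 3 values lay far from the other 3 of their group by Dixon's criterion, which chance meets in about 1 of 20 sets. Prkaa2 was 6.76 in Control 4, where the other Control arrays lay between 7.35 and 7.43. Prkag1 was 7.51 in Control 4, against 7.30 to 7.33. Prkag2 was 5.06 in LKB1 KO 2, against 5.74 to 5.86. All 3 fell on the arrays with the lowest correlation to their own groups.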

How the results depend on the processing

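Stk11 was the single gene of the 10 past the threshold in all 19 alternatives, and its difference ran from -2.59 to -2.26 (adjusted p up to 0.0283, without moderation of variances). The number of all genes past the threshold, 458, was 139 at 0.01, 839 at 0.10, 97 without moderation and 721 with array weights, and it ran from 213 to 491 with single arrays left out. Quantile normalization gave 191 higher and 341 lower (35.9% higher, against 24.7%). Equal replicate numbers did not deviate together (r from -0.11 to 0.18 over genes, 1 of 4 pairs above 0.1). They were therefore not taken as pairs. With the replicate block 268 genes passed and Stk11 kept its call (-2.39, adjusted p = 0.00527). Sesn1, Hscb and Cfi did not keep theirs (adjusted p = 0.0809, 0.0514 and 0.0606). The gamma ratio's shift of 0.41 had an exact sign-flip p of 0.125. That is the smallest p that 4 pairs allow, so the sign-flip test could not pass. Small differences changed sign. Stradb was 0.032 after quantile normalization and ran from -0.076 to 0.020 with single arrays left out, Prkaa2 from -0.081 to 0.19, and the ratio of Prkaa1 to Prkaa2 from -0.082 to 0.12. Anxa3 was 0.011 without both LKB1 KO 2 and Control 4. The causes were not tested. Without moderation Ppargc1a, Pfkfb3, Nr1h4, Plaat3 and Sesn1 were not called (adjusted p = 0.0588, 0.0583, 0.0603, 0.0588 and 0.0906). With the 90th percentile as gauge, Stk11 was above it in 4 LKB1 KO arrays, against 3.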
